A study of Mus musculus with 11 samples.

Results

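NIH-3T3 cells kept in AS1411 for 48 h were set against NIH-3T3 cells kept in AS1411 for 24 h, which describes how gene expression moved during the second day of exposure to this DNA aptamer. The libraries were taken by their titles, 2 AS1411 libraries at 48 h and 3 AS1411 libraries at 24 h, and make up 5 of the 11 libraries of the study. NIH-3T3 is an established line of wild-type mouse embryonic fibroblasts, grown in medium with 10% fetal bovine serum. The other 6 libraries came from cells given a control oligonucleotide, 3 at 48 h and 3 at 24 h, and both oligonucleotides were used at 10 µM. Polyadenylated RNA was sequenced, and reads were counted per gene. Nothing in the labels tells if replicates came from separate cultures, and the p-values therefore rest on a spread among samples that may be technical. There was no untreated or starting sample among those analysed here, so the change over time cannot be set against the cells before treatment.

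Both oligonucleotides are printed here because they are the only designed difference between the treated and the control cells. They have 26 bases each, and the capitals mark the 8 runs of guanine in AS1411 and the 8 runs of cytosine at the same positions of the control DNA.
AS1411: GGtGGtGGtGGttgtGGtGGtGGtGG
control DNA: CCtCCtCCtCCttctCCtCCtCCtCC

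AS1411 folds into guanine quadruplexes and binds nucleolin, an abundant protein of the nucleolus, the place where ribosomal RNA is made. Disturbed ribosome production is known to free ribosomal proteins that block Mdm2, the ligase that keeps p53 low, and p53 then turns on genes that stop the cell cycle, repair DNA or start cell death. The integrated stress response is a separate program in which kinases slow translation and factors such as Atf4 and Ddit3 are made. The control cells at both times give the change over the same day with the control DNA in place of AS1411. An effect of the control DNA cannot be told apart from that of time in culture.

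Each library held between 13541951 and 18784497 counts. In the first principal component of log2 CPM, which held 47.3% of the variance, the AS1411 48 h libraries lay at -51.37 and -50.39, against -1.39, 0.97 and -0.13 for the AS1411 24 h libraries. Replicates differed beyond sampling noise, with a chi-square per gene of 3.85 between the AS1411 48 h libraries and 1.54 to 3.03 among the AS1411 24 h libraries, and none was treated as a duplicate. Among the control libraries, replicate 2 at 48 h was the odd one, with 8.53 and 11.5 against the others of its group. The 20 most abundant genes took 4.43% and 4.42% of counts in the AS1411 48 h libraries, against 5.46%, 5.31% and 5.31% in the AS1411 24 h libraries. Fibroblast markers were present, and 11 of 15 listed markers were in the table, among them Col1a1 and Vim, with a summed level of 4982 to 5575 CPM at 48 h, against 6678 to 7036 CPM at 24 h. Thy1, Dcn, Lum and Fap were not analysed here. CPM are counts per 1000000 of a library's size after TMM scaling, a scaling that assumes that most genes keep their level.

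Over the second day AS1411 cells changed about evenly in number in both directions, but the rises were larger than the falls. Of 13040 genes tested, 3192 were higher at 48 h (24.5% of the genes tested) and 3206 were lower (24.6%) at an adjusted p under 0.05. All adjusted p-values are from edgeR's quasi-likelihood test over the 11 libraries, two-sided, with Benjamini-Hochberg adjustment over all genes tested. The median log2 change was 0.48 among genes called higher and -0.33 among genes called lower. At least 2-fold changes were called for 682 genes higher at 48 h (5.23% of the genes tested) and for 150 lower (1.15%). Among the 12500 genes that pass the filter on low counts without the AS1411 48 h libraries, these numbers were 449 and 146, and the median changes of called genes were 0.44 and -0.33. The 48 h and 24 h libraries did not overlap for 4468 genes higher at 48 h (34.3%) and 4476 lower (34.3%). When libraries were scaled by their total counts alone, 4337 genes were called higher and 2050 lower, and the median change of all genes stood at 0.10, against 0.00 with TMM. The TMM factors were 1.089 and 1.078 in the AS1411 48 h libraries, against 1.010 to 1.012 in the AS1411 24 h libraries. RNA per cell was not measured, so a fall of a gene's share of the library cannot be told apart from a rise of the others.

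Control cells moved less over the same day. There, 1513 genes were higher at 48 h (11.6% of the genes tested) and 1723 lower (13.2%), with at least 2-fold changes for 105 (0.805%) and 99 (0.759%). Leaving out control replicate 1, 2 or 3 at 24 h brought the number lower to 1146, 1125 and 1147. The median size of a called log2 change was 0.39 in AS1411 cells and 0.28 in control cells. The comparisons share no library, and across all 13040 genes the changes correlated with a Pearson r of 0.34 and a Spearman rho of 0.36, a description across genes that are not independent of each other. The genes higher in both numbered 759, which is 23.8% of the AS1411 list and 50.2% of the control list. Those lower in both numbered 1041, or 32.5% of the AS1411 list and 60.4% of the control list.

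The difference between the changes was itself tested, as the AS1411 change minus the control change. It was above 0 for 1749 genes (13.4% of the genes tested) and below 0 for 1845 (14.1%), with at least 2-fold differences for 366 (2.81%) and 77 (0.59%). Of the 2260 genes higher in AS1411 cells and not called in control cells, 1102 passed the test of the difference, and of the 2011 lower in AS1411 cells and not called in control cells, 1124 passed. Opposite calls were made for 173 genes that were higher with AS1411 and lower with the control DNA, and for 154 genes with the reverse.

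**Figure D1:**
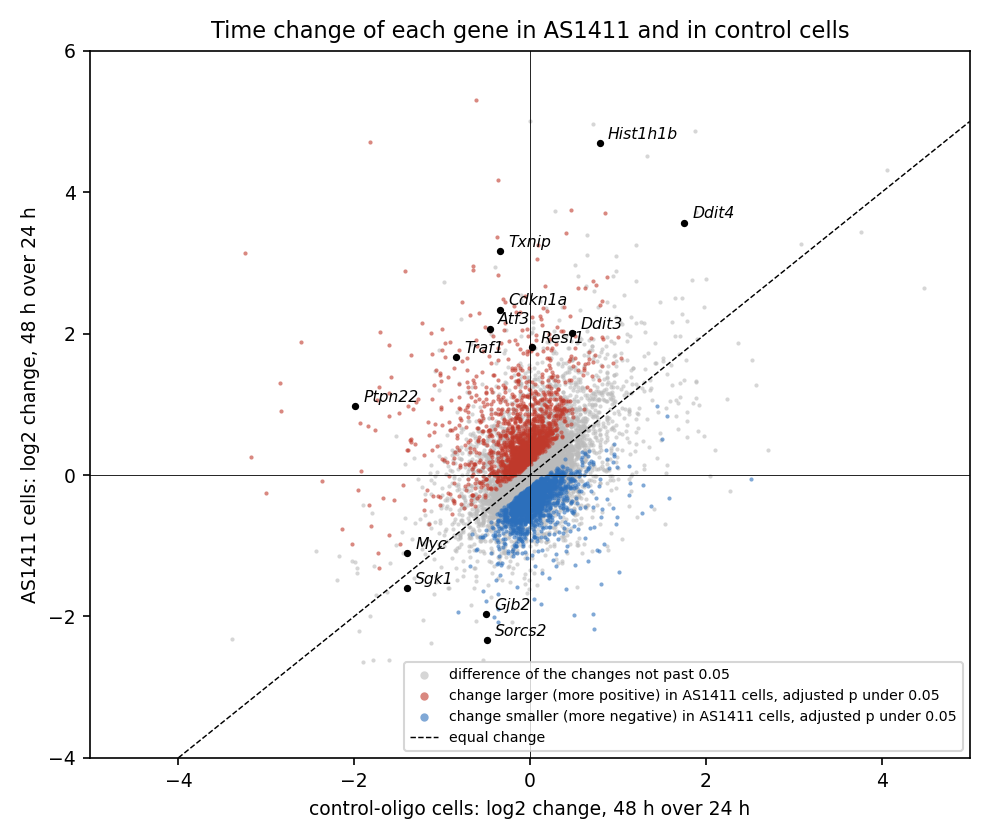
Each point is 1 of 13040 genes, with its log2 change, 48 h over 24 h, in AS1411 cells (vertical axis) against that in control cells (horizontal axis), and colours mark the genes whose changes differed at an adjusted p under 0.05. Txnip, Cdkn1a and Atf3 lie high on the left of the vertical line, with log2 changes of 3.17, 2.34 and 2.07 in AS1411 cells, while Sgk1 and Myc lie near the line of equal change.

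The direction of change went with expression level. A gene can pass the filter on low counts because it is high at 48 h alone, so levels are given for the 12500 genes that pass it in the other 9 libraries, split by the log2 of their mean CPM in the 6 control libraries. Of the 540 genes left out this way, 237 had been called higher and 4 lower. Below 0 on that scale, 191 of 882 genes were higher at 48 h and 38 lower, with a median log2 change of 0.16. From 4 to 6 the numbers were nearly equal, 1011 and 1020 of 3884. At 8 and above, 76 of 805 were higher and 469 lower, with a median of -0.17. Of the 449 genes at least 2-fold higher, 335 lay below 2 on this scale. In control cells the medians of the 6 tiers lay between -0.04 and 0.04.

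Protein-coding genes and genes of other biotypes parted in the lowest tier. There, 169 of 474 protein-coding genes were higher and 7 lower, with a median of 0.57. Of 408 genes of other biotypes, 22 were higher and 31 lower, with a median of -0.14. From 0 to 2, 366 of 1008 protein-coding genes were higher and 39 lower, with a median of 0.39. With all 13040 genes tiered by their mean over the 11 libraries, which lets in the genes that were strong at 48 h alone, the protein-coding median below 0 was 0.81. Of the genes named in this text, Cbs, Ccl20, Hist1h1a, Hist1h1b, Hist1h1d, Icam1, Mmp10, Ripk3 and Rragd passed the filter only through the AS1411 48 h libraries, and their changes are a description.

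**Figure D2:**
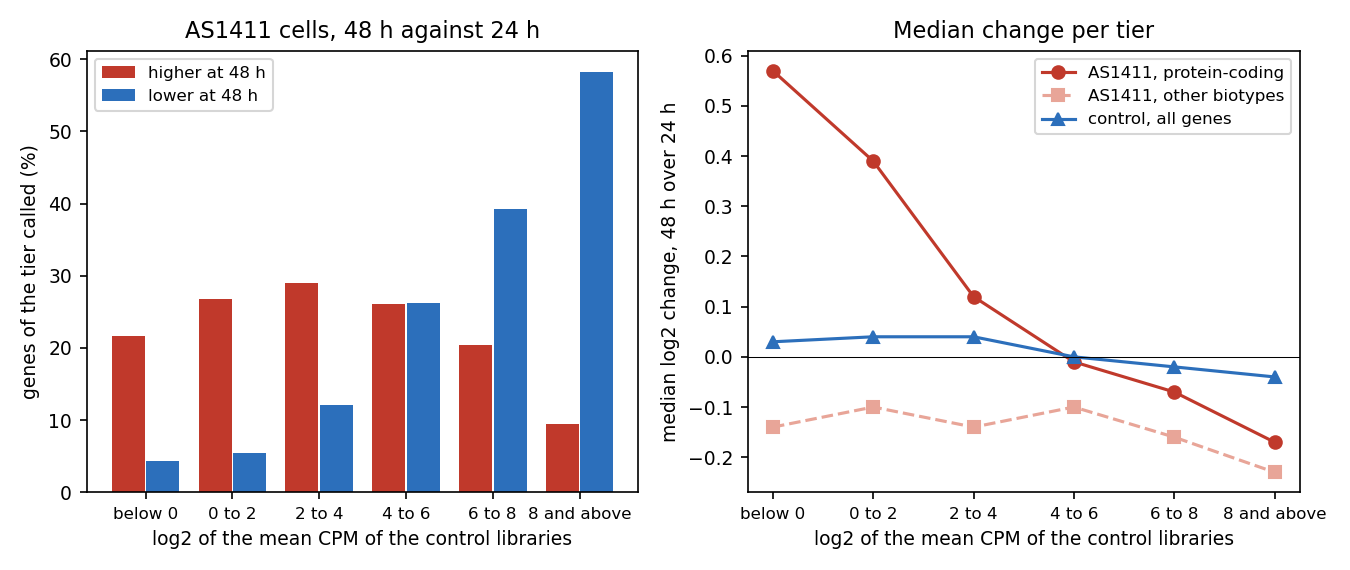
The left panel gives the percentage of genes in each tier of control level (log2 of the mean CPM of the 6 control libraries) that were called higher (red) or lower (blue) at 48 h in AS1411 cells, over the 12500 genes that pass the filter without the AS1411 48 h libraries. The right panel gives the median log2 change, 48 h over 24 h, for protein-coding genes and for genes of other biotypes in AS1411 cells and for all genes in control cells. The protein-coding median stands at 0.57 in the lowest tier and -0.17 in the highest, and the control medians lie within -0.04 to 0.04.

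Among genes with a mean log2 CPM of at least 2 whose libraries did not overlap, and without clone-named genes, Ddit4 and Txnip had the largest rises. Ddit4, which makes an inhibitor of the growth kinase mTORC1 (ENSMUSG00000020108, chr10:59949669-59951834, minus strand, GRCm38), had 51.1 and 42.9 CPM in the AS1411 48 h libraries, against 3.35, 4.53 and 4.05 CPM in the AS1411 24 h libraries. Both 48 h values lay far above all 24 h values. Ddit4 rose by 3.57 ± 0.13 (SE, adjusted p = 3.6e-13) on the log2 scale. In control cells it also rose, by 1.75 (adjusted p = 4.1e-08), and the difference between the changes was 1.82 ± 0.20 (SE, adjusted p = 3.7e-06). Txnip, an alpha-arrestin that binds thioredoxin and limits glucose uptake (ENSMUSG00000038393, chr3:96557957-96561883, plus strand), had 80.2 and 73.9 CPM in the AS1411 48 h libraries, against 8.97, 8.25 and 8.47 CPM in the AS1411 24 h libraries. Every other library of the study was near the AS1411 24 h level, with 8.86, 6.31 and 6.92 CPM in control cells at 48 h and 8.72, 8.998 and 10.1 CPM in control cells at 24 h. Txnip rose by 3.17 ± 0.10 (SE, adjusted p = 6.0e-14), and its change in control cells was -0.34 (adjusted p = 0.0457). The difference, 3.5 ± 0.16 (SE, adjusted p = 2.7e-11), was the largest on the log2 scale among the genes named in this text with a mean log2 CPM of at least 2.

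Further genes were named by the same rule, which took the 12 largest rises. Trp53inp1, a p53-induced protein with a role in autophagy and cell death, had 27.3 and 17.5 CPM in the AS1411 48 h libraries, against 3.66, 2.92 and 3.42 CPM in the AS1411 24 h libraries, and the 48 h libraries differed from each other more than the 24 h libraries did. Acy3, an aminoacylase, had 18.9 and 20.1 CPM in the AS1411 48 h libraries, against 5.56, 3.58 and 4.52 CPM in the AS1411 24 h libraries. Notch3, a receptor of the Notch family, had 13.7 and 9.98 CPM in the AS1411 48 h libraries, against 2.904, 2.78 and 3.58 CPM in the AS1411 24 h libraries. Each of these was low at 24 h in every library and did not overlap with its 48 h values. Their log2 changes were 2.74 ± 0.26 (SE, adjusted p = 4.0e-06) for Trp53inp1, 2.09 ± 0.15 (SE, adjusted p = 2.7e-09) for Acy3 and 1.93 ± 0.24 (SE, adjusted p = 1.4e-05) for Notch3. Resf1, a silencing factor for retroelements, had 172 and 169.8 CPM in the AS1411 48 h libraries, against 46.9, 52.9 and 47.1 CPM in the AS1411 24 h libraries, and 68.9, 74.7 and 74.4 CPM in control cells at 48 h and 65.4, 72.3 and 77.8 CPM in control cells at 24 h. Resf1 rose by 1.81 ± 0.07 (SE, adjusted p = 3.6e-13) in AS1411 cells, with a control change of 0.02 (adjusted p = 0.842) and a difference of 1.79 ± 0.09 (SE, adjusted p = 2.0e-10). The remaining genes of the 12 were Hist1h2bc, Cdkn1a, Atf3, Cxcl10, Ddit3 and Hist1h1c, and they are described with their groups below.

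**Figure D3:**
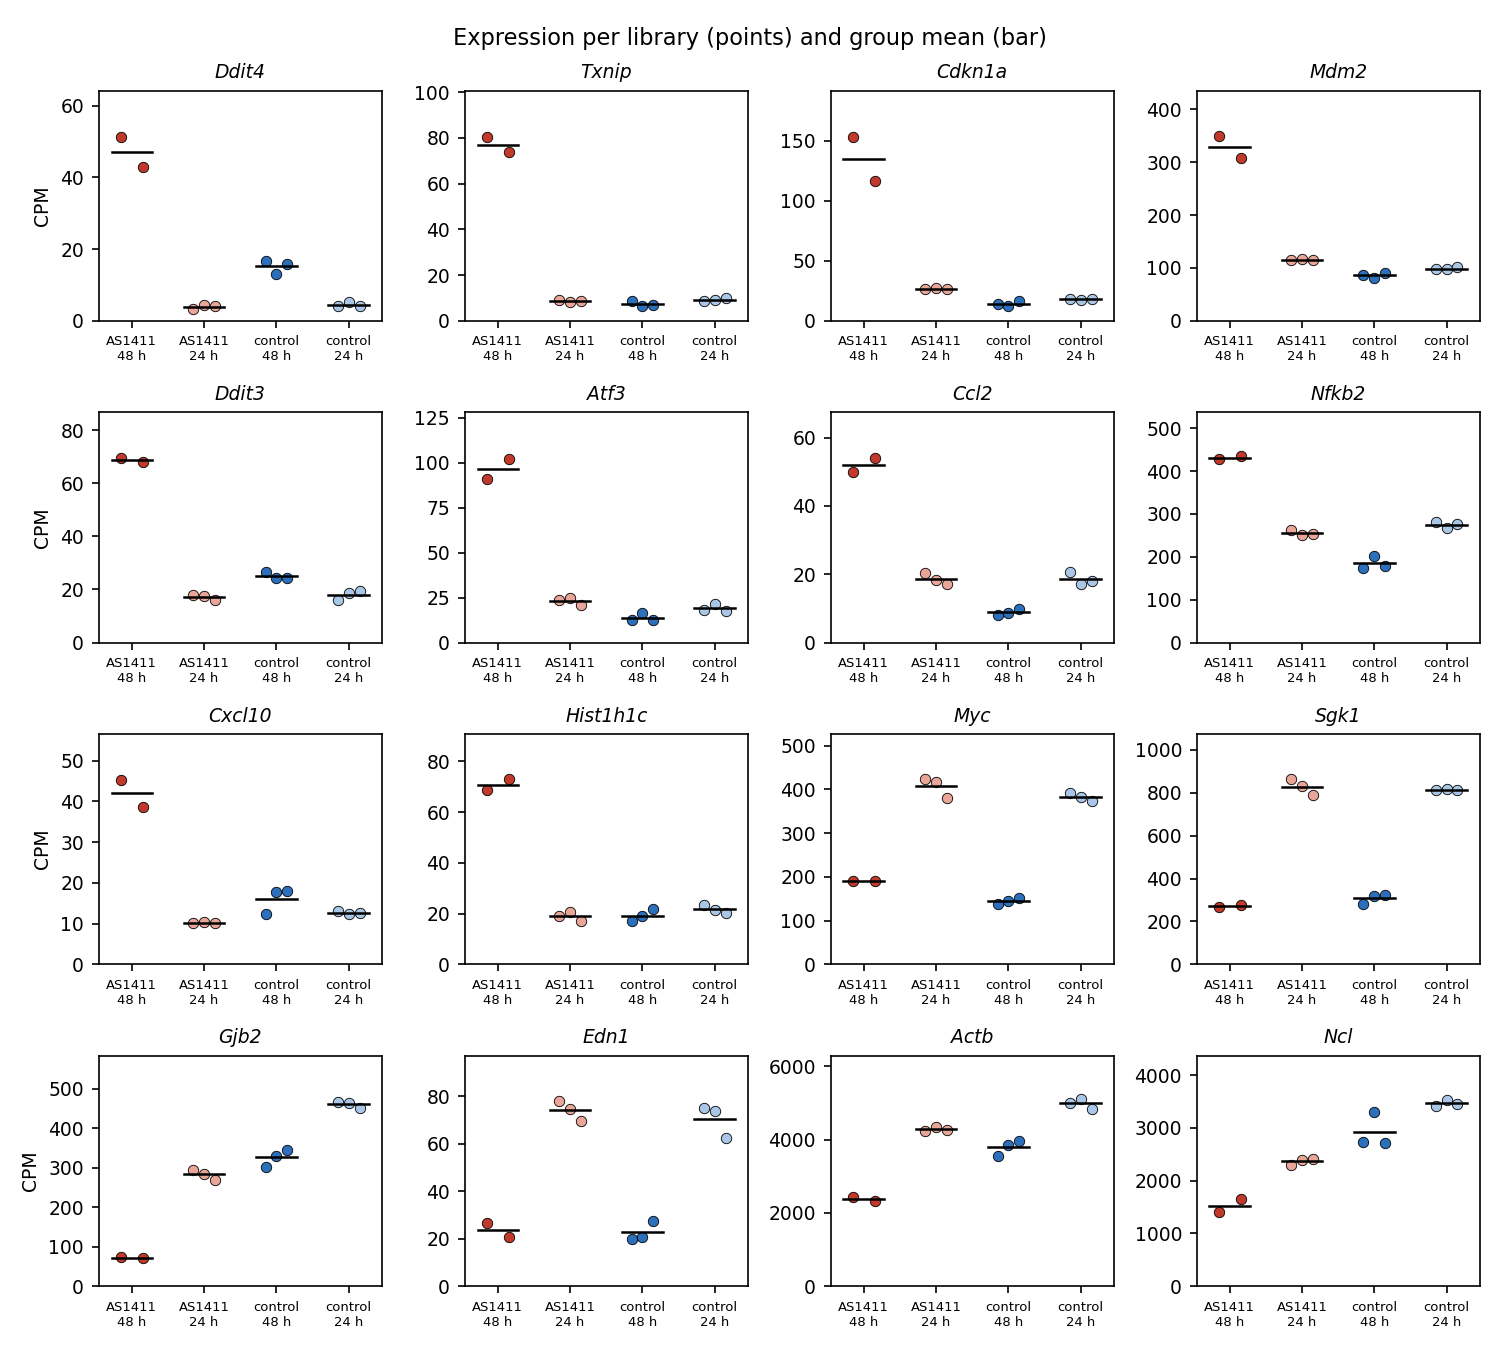
Each panel gives the CPM of 1 gene in every library (points) with the group mean (bar), for AS1411 at 48 h, AS1411 at 24 h, control at 48 h and control at 24 h. Txnip, Cdkn1a, Atf3 and Ccl2 are high in the AS1411 48 h libraries alone, at 80.2 and 73.9 CPM for Txnip, while Myc, Sgk1 and Edn1 are low at 48 h with either oligonucleotide.

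The counts of gene lists that follow are read against the shares of all genes tested. With AS1411 24.5% were higher and 24.6% lower, in control cells 11.6% and 13.2%, and the difference was above 0 for 13.4% and below 0 for 14.1%. The AS1411 shares differed by level, at 58.3% lower and 9.44% higher for genes at 8 and above on the control scale. From 6 to 8 on that scale they were 39.3% and 20.3%. Lists were not matched for level, and the part of level in a list's share was not tested. In 15 lists, 1 to 4 members passed the filter on low counts only through the AS1411 48 h libraries, and leaving them out took at most 2 from a count of members called higher and none from a count called lower.

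Most targets of p53 were higher at the end of the second day. Of 37 tested members, 25 were higher at 48 h and 6 lower, which is 67.6% higher against 24.5% of all genes tested, with a median log2 change of 0.50 against 0.00. In control cells 4 were higher and 12 lower. The difference of the changes was called above 0 for 22 members and below 0 for 1. Trp53 itself, the gene of p53, had 418 and 428 CPM in the AS1411 48 h libraries, against 412, 426 and 419 CPM in the AS1411 24 h libraries, and these values overlapped, with a log2 change of 0.01 ± 0.04 (SE, adjusted p = 0.83). A change of p53 protein was not measured.

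Cdkn1a makes p21, the inhibitor of cyclin-dependent kinases that stops the cell cycle (ENSMUSG00000023067, chr17:29090976-29100727, plus strand). It had 153 and 116 CPM in the AS1411 48 h libraries, against 26.3, 26.95 and 26.8 CPM in the AS1411 24 h libraries, and 13.6, 12.7 and 16.2 CPM in control cells at 48 h and 18.3, 17.7 and 17.9 CPM in control cells at 24 h. Both AS1411 48 h values lay far above every other library. Cdkn1a rose by 2.34 ± 0.10 (SE, adjusted p = 2.4e-10), against -0.34 (adjusted p = 0.0492) in control cells, and the difference was 2.68 ± 0.16 (SE, adjusted p = 2.3e-08). Mdm2, the ligase that marks p53 for degradation and is itself a p53 target, had 349 and 308 CPM in the AS1411 48 h libraries, against 116, 116 and 114 CPM in the AS1411 24 h libraries. It rose by 1.51 ± 0.05 (SE, adjusted p = 2.0e-13), and the difference from control cells was 1.71 ± 0.07 (SE, adjusted p = 2.3e-11). Gadd45a, a DNA damage and stress protein, had 65.1 and 62.3 CPM in the AS1411 48 h libraries, against 21.7, 21.5 and 20.4 CPM in the AS1411 24 h libraries, and its log2 change was 1.59 ± 0.08 (SE, adjusted p = 1.6e-11). Sesn2, a sestrin that dampens mTORC1, had 77.03 and 69.9 CPM in the AS1411 48 h libraries, against 21.1, 21.3 and 21.3 CPM in the AS1411 24 h libraries, with a log2 change of 1.79 ± 0.08 (SE, adjusted p = 1.6e-11). Ccng1, cyclin G1, had 228 and 208 CPM in the AS1411 48 h libraries, against 110.2, 113 and 113 CPM in the AS1411 24 h libraries, and rose by 0.96 ± 0.05 (SE, adjusted p = 1.1e-10). For each of these genes the AS1411 48 h libraries were the highest of all 11.

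Other p53 targets split. Examples beyond the named genes were chosen here and in the lists that follow after their values had been seen. Ppm1d, a phosphatase that turns p53 signalling off, rose by 0.77 on the log2 scale, Rrm2b, a subunit of ribonucleotide reductase, by 0.72, and Polk, a translesion polymerase, by 0.80. Phlda3, Zmat3 and Xpc did not pass the test, at 0.17, 0.02 and 0.06. Bax, which opens the outer mitochondrial membrane, fell by 0.31, and Aen, an apoptosis nuclease, fell by 0.44. Plk2, a polo-like kinase that is a p53 target and also an immediate-early gene, had 855 and 907 CPM in the AS1411 48 h libraries, against 716, 691 and 669 CPM in the AS1411 24 h libraries, and 357, 414 and 358 CPM in control cells at 48 h and 829, 810.3 and 818 CPM in control cells at 24 h. In control cells its level at 48 h was the lowest of the 4 groups, and in AS1411 cells it was the highest. Plk2 rose by 0.35 ± 0.05 (SE, adjusted p = 4.3e-05) with AS1411, its control change was -1.12 (adjusted p = 3.4e-11), and the difference was 1.47 ± 0.07 (SE, adjusted p = 2.1e-10).

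The promoters of Cdkn1a and Ccng1 are shown because both genes rose and both windows hold the p53 consensus with at most 1 mismatch. They are RefSeq windows on GRCm38.p6, 250 bases before to 50 bases after an annotated start, with the match in capitals. Of 32851 mouse promoter windows of 300 bases, 29 hold such a match (0.0883%). Of the 78 genes named by rule and reported, 59 had a promoter in the table. The Cdkn1a window is chr17:29090729-29091028 on the plus strand, and the Ccng1 window is chr11:40755237-40755536 on the minus strand. No match in other windows says only that these letters are not within them.
Cdkn1a: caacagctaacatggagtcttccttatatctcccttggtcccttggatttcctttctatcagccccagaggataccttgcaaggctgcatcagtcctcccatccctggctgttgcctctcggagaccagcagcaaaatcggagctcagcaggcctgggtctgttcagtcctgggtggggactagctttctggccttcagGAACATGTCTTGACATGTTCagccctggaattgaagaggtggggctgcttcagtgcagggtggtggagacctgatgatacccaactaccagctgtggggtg
Ccng1: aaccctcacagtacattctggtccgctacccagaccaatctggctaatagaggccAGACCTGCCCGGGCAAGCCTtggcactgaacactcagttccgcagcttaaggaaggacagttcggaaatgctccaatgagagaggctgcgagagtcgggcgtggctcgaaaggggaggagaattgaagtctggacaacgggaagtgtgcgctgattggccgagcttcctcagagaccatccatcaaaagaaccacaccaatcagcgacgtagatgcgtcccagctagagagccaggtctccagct

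Genes of the BCL2 family and death list were more often higher than lower, as the p53 targets were, and some are on both lists. Of 29 tested members of the BCL2 family and death list, 16 were higher (55.2%, against 24.5% of all genes) and 4 lower, with a median of 0.35. The list mixes genes that promote death with genes that block it, and both kinds were called in both directions. Among those higher were the survival genes Xiap (0.23), Birc2 (0.35) and Bcl2l2 (0.20). The 4 lower were the death genes Bax (-0.31) and Diablo (-0.34) and the survival genes Bcl2 (-0.25) and Bcl2l1. In control cells 7 were higher and 4 lower, and the difference was above 0 for 14 and below 0 for 3. Pmaip1 (Noxa), a BH3-only activator of apoptosis, had 19.2 and 19.8 CPM in the AS1411 48 h libraries, against 9.15, 8.11 and 7.47 CPM in the AS1411 24 h libraries, and rose by 1.24 ± 0.11 (SE, adjusted p = 4.2e-08). Bbc3 (Puma), of the same class, had 32.2 and 25.6 CPM in the AS1411 48 h libraries, against 13.3, 12.3 and 12.5 CPM in the AS1411 24 h libraries, and rose by 1.19 ± 0.11 (SE, adjusted p = 5.1e-08). All 48 h values of both genes lay above all 24 h values. Bcl2l1 (Bcl-xL), a survival protein, had 89.5 and 87.9 CPM in the AS1411 48 h libraries, against 133, 138 and 139.7 CPM in the AS1411 24 h libraries. It fell by 0.63 ± 0.05 (SE, adjusted p = 4.1e-08) with AS1411 and had a control change of -0.52 (adjusted p = 3.6e-07). The death receptor gene Fas rose by 1.63, with a difference from control of 2.0. The necroptosis kinase gene Ripk3 was weak, with 1.88 and 1.695 CPM in the AS1411 48 h libraries, against 0.316, 0.511 and 0.316 CPM in the AS1411 24 h libraries, and without it 15 of 28 were higher.

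The alpha-arrestins rose beside Txnip. Txnip and Arrdc4 are known targets of MondoA, a glucose-sensing factor that works with Mlx. Of 7 tested members of the list, 5 were higher at 48 h and none lower by edgeR, against 24.5% and 24.6% of all genes. In control cells none was higher by edgeR, and 2 were lower. Both counts of none were 0 at an unadjusted p under 0.05 and by DESeq2 as well. Arrdc3 had 90.9 and 101 CPM in the AS1411 48 h libraries, against 31.1, 29.8 and 28.9 CPM in the AS1411 24 h libraries, and rose by 1.68 ± 0.08 (SE, adjusted p = 1.1e-10). Its control values were 31.6, 32.7 and 29.9 CPM at 48 h and 44.3, 48.8 and 37.3 CPM at 24 h, and the difference was 2.15 ± 0.12 (SE, adjusted p = 9.9e-10). Arrdc4 had 5.71 and 5.93 CPM in the AS1411 48 h libraries, against 1.705, 1.83 and 2.31 CPM in the AS1411 24 h libraries, with a log2 change of 1.56 ± 0.20 (SE, adjusted p = 3.3e-06). Arrdc2 had 7.53 and 5.803 CPM in the AS1411 48 h libraries, against 3.03, 3.43 and 3.21 CPM in the AS1411 24 h libraries, with a log2 change of 1.06 ± 0.17 (SE, adjusted p = 4.6e-05). In each of these genes the 48 h libraries lay above all 24 h libraries. Arrdc1 rose by 0.36. The genes of the factors did not pass the test, Mlxip (MondoA) at -0.01 and Mlx at 0.09.

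The Txnip promoter is shown because Txnip had the largest difference between AS1411 and control cells among the named genes. The human TXNIP promoter is known for a carbohydrate response element made of a pair of E-box-like motifs. The mouse window at chr3:96557707-96558006, plus strand (RefSeq, GRCm38.p6), holds CACGAG at 85 and 74 bases before the annotated start, marked in capitals, and does not hold the full E-box CACGTG on either strand. Both strands were searched, so CTCGTG counted as well. Among all 32851 windows, 6.47% hold CACGAG at least once and 0.359% at least 2 times, and 7.15% hold CACGTG. Arrdc4 holds CACGTG at 193 bases before its start, and Arrdc2 holds CACGAG at 77 bases before its start. A match is a description of the letters and not a site.
Txnip: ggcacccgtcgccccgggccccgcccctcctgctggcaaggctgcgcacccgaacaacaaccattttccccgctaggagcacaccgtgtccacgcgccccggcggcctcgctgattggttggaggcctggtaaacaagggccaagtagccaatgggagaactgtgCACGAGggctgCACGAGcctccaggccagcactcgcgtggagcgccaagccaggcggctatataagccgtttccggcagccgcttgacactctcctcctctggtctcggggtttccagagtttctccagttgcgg

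Part of the integrated stress response moved and part did not. Of 38 tested members, 18 were higher (47.4%, against 24.5%) and 5 lower, with a median of 0.17. In control cells 12 were higher and 6 lower, and the difference was above 0 for 12 and below 0 for 6. Beside Ddit4, Atf3 and Ddit3 rose most. Ddit3 (CHOP), a transcription factor of prolonged stress, had 69.6 and 68.1 CPM in the AS1411 48 h libraries, against 17.7, 17.7 and 16.05 CPM in the AS1411 24 h libraries, and 26.7, 24.2 and 24.3 CPM in control cells at 48 h and 15.9, 18.5 and 19.4 CPM in control cells at 24 h. Ddit3 rose by 2.01 ± 0.08 (SE, adjusted p = 1.6e-12), with a difference from control of 1.53 ± 0.12 (SE, adjusted p = 2.9e-08). Atf3, a stress-induced repressor and activator of the ATF family, had 91.2 and 102 CPM in the AS1411 48 h libraries, against 23.7, 24.5 and 21.1 CPM in the AS1411 24 h libraries, and 12.3, 16.5 and 12.4 CPM in control cells at 48 h and 17.9, 21.4 and 17.6 CPM in control cells at 24 h. Atf3 rose by 2.07 ± 0.10 (SE, adjusted p = 5.1e-10) with AS1411 and changed by -0.46 (adjusted p = 0.00928) in control cells. Trib3, a pseudokinase induced by Ddit3, rose by 1.4, and Chac1, which degrades glutathione, by 0.88.

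Ppp1r15a (GADD34) directs the phosphatase that reverses the translation block of this response. It had 177 and 199 CPM in the AS1411 48 h libraries, against 91.7, 92.7 and 82.2 CPM in the AS1411 24 h libraries, and 32.6, 33.4 and 31.2 CPM in control cells at 48 h and 72.2, 70.3 and 69.04 CPM in control cells at 24 h. The control libraries at 48 h were the lowest and the AS1411 libraries at 48 h the highest. It rose by 1.08 ± 0.06 (SE, adjusted p = 9.2e-11) in AS1411 cells, changed by -1.12 (adjusted p = 2.9e-10) in control cells, and had the smallest adjusted p of the difference among all genes that the rule considered, at 2.2 ± 0.08 (SE, adjusted p = 4.9e-12). Several genes of amino acid supply did not rise. Cbs, of cysteine synthesis, rose by 1.97, but it passed the filter on low counts only through the AS1411 48 h libraries. Asns, asparagine synthetase, stood at -0.08 and Atf4 at 0.06, neither past the test, and Psat1, of serine synthesis, fell by 0.49. Slc7a5, a transporter of large neutral amino acids, fell by 0.48.

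The Ppp1r15a window is shown because it holds TGACGTCA, the full cAMP response element bound by ATF and CREB factors, 12 bases before the annotated start. The search counted this palindrome on both strands, and 1.79% of all windows hold it. It lies at chr7:45526219-45526518 on the minus strand (RefSeq, GRCm38.p6), with the element in capitals. The Plk2 window holds the same letters 62 bases before its start. The AP-1 motif TGACTCA, or TGAGTCA on the other strand, is in the Cxcl10 window and in the Ddit3 window, and in 5.20% of all windows.
Ppp1r15a: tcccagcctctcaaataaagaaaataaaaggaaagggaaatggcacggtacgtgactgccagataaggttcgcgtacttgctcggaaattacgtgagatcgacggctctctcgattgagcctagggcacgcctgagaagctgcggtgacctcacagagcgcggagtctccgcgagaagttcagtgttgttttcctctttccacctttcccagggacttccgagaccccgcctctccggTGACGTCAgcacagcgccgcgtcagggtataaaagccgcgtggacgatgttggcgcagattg

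Immediate-early genes and feedback inhibitors of the ERK pathway fell over time in control cells, and in AS1411 cells fewer of them fell. Of 43 tested members, 10 were higher and 17 lower in AS1411 cells (39.5% lower, against 24.6% of all genes), with a median of -0.14. In control cells none was higher and 31 were lower by edgeR, with a median of -0.74, against 13.2% of all genes lower, and none was higher at an unadjusted p under 0.05 or by DESeq2. The difference was called above 0 for 24 members and below 0 for 1, against 13.4% and 14.1% of all genes. Junb, an AP-1 subunit, had 481 and 502 CPM in the AS1411 48 h libraries, against 226, 204 and 194 CPM in the AS1411 24 h libraries, and 107, 131 and 138 CPM in control cells at 48 h and 225, 201 and 189 CPM in control cells at 24 h. Its log2 change was 1.24 ± 0.11 (SE, adjusted p = 1.0e-05) with AS1411 and -0.71 (adjusted p = 8.8e-04) in control cells. Nr4a3, an orphan nuclear receptor, changed by 1.65 with AS1411 and 0.19 in control cells. Btg2, an antiproliferative gene that is also a p53 target, changed by 0.71 and -1.0 in the same order. Areg, an EGF receptor ligand, changed by -0.09 with AS1411, not past the test, and -2.37 in control cells.

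The early growth response factors fell in both. Egr1 had 133 and 147 CPM in the AS1411 48 h libraries, against 416, 359 and 329.9 CPM in the AS1411 24 h libraries, with a log2 change of -1.39, and 59.1, 60.1 and 112 CPM in control cells at 48 h and 347, 301 and 266 CPM in control cells at 24 h, with a log2 change of -1.97. Egr2 changed by -1.31 with AS1411 and -1.97 in control cells, and Spry2, an inhibitor of growth-factor receptors, by -1.04 and -1.23. The differences of these 3 genes did not pass the test. Sgk1, a serum- and glucocorticoid-induced kinase, had 269 and 278 CPM in the AS1411 48 h libraries, against 866, 832 and 791 CPM in the AS1411 24 h libraries, and 282, 319 and 321 CPM in control cells at 48 h and 814, 816 and 813 CPM in control cells at 24 h. Its level at both times was nearly the same with either oligonucleotide, and it fell by 1.6 ± 0.06 (SE, adjusted p = 1.7e-13) in AS1411 cells. Myc had 189 and 189.6 CPM in the AS1411 48 h libraries, against 424, 416 and 379.8 CPM in the AS1411 24 h libraries, and 137, 144 and 152 CPM in control cells at 48 h and 391, 383 and 373 CPM in control cells at 24 h. Myc fell by 1.1 ± 0.05 (SE, adjusted p = 1.7e-11) with AS1411, and its control change was -1.4 (adjusted p = 1.6e-13). The Myc fall was the smaller with AS1411, with a difference of 0.30 ± 0.07 (SE, adjusted p = 0.00315).

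Genes of NF-kB and inflammation went apart between the oligonucleotides. Of 32 tested members, 16 were higher with AS1411 (50%, against 24.5%) and 3 lower, while in control cells 3 were higher and 13 lower. The medians were 0.48 with AS1411 and -0.28 in control cells. The difference was above 0 for 19 members and below 0 for none by edgeR, 2 at an unadjusted p under 0.05 and 1 by DESeq2. Ccl2, a chemokine for monocytes, had 49.9 and 53.9 CPM in the AS1411 48 h libraries, against 20.5, 18.3 and 17.2 CPM in the AS1411 24 h libraries, and 8.03, 8.69 and 9.71 CPM in control cells at 48 h and 20.8, 17.1 and 17.9 CPM in control cells at 24 h. At 24 h the oligonucleotides gave nearly the same level, and by 48 h they had parted. Ccl2 rose by 1.48 ± 0.09 (SE, adjusted p = 7.6e-10) with AS1411, changed by -1.07 (adjusted p = 7.4e-07) in control cells, and had a difference of 2.55 ± 0.14 (SE, adjusted p = 4.4e-10). Cxcl10, a chemokine induced by interferon, had 45.4 and 38.7 CPM in the AS1411 48 h libraries, against 10.04, 10.4 and 10.3 CPM in the AS1411 24 h libraries, and 12.5, 17.8 and 18.1 CPM in control cells at 48 h and 13.1, 12.4 and 12.5 CPM in control cells at 24 h. It rose by 2.04 ± 0.12 (SE, adjusted p = 6.3e-10), with a difference of 1.69 ± 0.17 (SE, adjusted p = 1.9e-06).

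Among regulators of the pathway Nfkb2, Nfkbia and Traf1 rose, and Rela did not pass the test. Nfkb2, the p100/p52 subunit, had 428 and 435 CPM in the AS1411 48 h libraries, against 263, 252 and 253 CPM in the AS1411 24 h libraries, and 174, 201 and 179 CPM in control cells at 48 h and 280.3, 267 and 277 CPM in control cells at 24 h. It rose by 0.75 ± 0.05 (SE, adjusted p = 2.0e-09), changed by -0.57 (adjusted p = 9.1e-08) in control cells, and had a difference of 1.32 ± 0.07 (SE, adjusted p = 2.3e-10). Nfkbia, the inhibitor IkB-alpha that NF-kB itself induces, had 149.6 and 146 CPM in the AS1411 48 h libraries, against 71.3, 67.1 and 66.4 CPM in the AS1411 24 h libraries, and its log2 change was 1.12 with AS1411 and -0.36 in control cells. Traf1, an adaptor of TNF receptors, had 20.9 and 25.2 CPM in the AS1411 48 h libraries, against 8.71, 5.77 and 7.05 CPM in the AS1411 24 h libraries, and 4.57, 10.2 and 5.02 CPM in control cells at 48 h and 12.3, 11.2 and 11.9 CPM in control cells at 24 h. The control 48 h libraries of Traf1 varied more than the others. Traf1 rose by 1.67 ± 0.26 (SE, adjusted p = 5.7e-04) and had a difference of 2.51 ± 0.38 (SE, adjusted p = 0.00104). Icam1, an adhesion molecule, was weak, with 1.31 and 0.913 CPM in the AS1411 48 h libraries, against 0, 0 and 0.0526 CPM in the AS1411 24 h libraries, and its log2 change was 5.31 ± 0.80 (SE, adjusted p = 2.6e-05). Ccl20 was weak too, with 3.08 and 2.67 CPM in the AS1411 48 h libraries, against 0, 0.07304 and 0.2104 CPM in the AS1411 24 h libraries. At such levels a fold change depends on few reads. Rela, the main activating subunit, stood at 0.07, and Cxcl12, a stromal chemokine, fell by 1.07.

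The Nfkb2 window is shown because Nfkb2 had one of the smallest adjusted p of the difference and the window holds an NF-kB motif of 10 bases, marked in capitals. This motif and a close variant were searched on both strands, and 80 of all windows (0.244%) hold one of them. It begins 10 bases after the annotated start in the window chr19:46305445-46305744, plus strand (RefSeq, GRCm38.p6). The Trp53 window, of a gene that did not change with AS1411 past the test, holds it as well.
Nfkb2: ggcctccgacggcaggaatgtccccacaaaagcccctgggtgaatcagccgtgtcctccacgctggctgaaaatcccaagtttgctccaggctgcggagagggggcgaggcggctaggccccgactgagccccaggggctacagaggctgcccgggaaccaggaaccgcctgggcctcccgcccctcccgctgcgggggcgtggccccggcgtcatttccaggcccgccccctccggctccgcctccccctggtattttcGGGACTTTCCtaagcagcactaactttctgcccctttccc

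Interferon-stimulated genes rose in both, and those of antigen presentation more with AS1411. Of 32 tested interferon-stimulated genes, 19 were higher (59.4%, against 24.5%) and 1 lower in AS1411 cells, with a median of 0.71. In control cells 14 were higher and 1 lower, with a median of 0.45, against 11.6% of all genes higher. The difference was above 0 for 8 and below 0 for 3. Irf1, an interferon regulatory factor, had 52.9 and 57.1 CPM in the AS1411 48 h libraries, against 26.5, 23.6 and 24.4 CPM in the AS1411 24 h libraries, and 46.1, 48.9 and 40.2 CPM in control cells at 48 h and 23.9, 25.1 and 23.9 CPM in control cells at 24 h. Irf1 rose by 1.14 ± 0.08 (SE, adjusted p = 2.9e-09) with AS1411 and 0.89 (adjusted p = 1.3e-07) in control cells, and the difference of 0.26 ± 0.11 (SE, adjusted p = 0.0962) did not pass the test. Eif2ak2 (PKR), a kinase activated by double-stranded RNA, had 86.2 and 93.95 CPM in the AS1411 48 h libraries, against 55.1, 56.9 and 52.3 CPM in the AS1411 24 h libraries, with a log2 change of 0.72 ± 0.06 (SE, adjusted p = 3.8e-08). Parp14 was weak, with 2.796 and 2.02 CPM in the AS1411 48 h libraries, against 0.379, 0.219 and 0.421 CPM in the AS1411 24 h libraries, and its log2 change was 2.77 ± 0.34 (SE, adjusted p = 2.6e-06). Samhd1, which cleaves nucleotides, had 412 and 416 CPM in the AS1411 48 h libraries, against 338, 347 and 343 CPM in the AS1411 24 h libraries, with a log2 change of 0.27 ± 0.04 (SE, adjusted p = 1.7e-05). Ifit1, an antiviral RNA-binding protein, went the other way, at -0.14 with AS1411, not past the test, and 1.28 in control cells, with a difference of -1.42 ± 0.46 (SE, adjusted p = 0.0413).

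Of 14 tested genes of MHC class I presentation, 9 were higher (64.3%) and none lower with AS1411 by edgeR (0 at an unadjusted p under 0.05 and by DESeq2), against 24.5% and 24.6% of all genes, and in control cells 1 was higher and 1 lower. The difference of the changes was above 0 for 8 of these genes. H2-D1, a class I heavy chain, had 151 and 151 CPM in the AS1411 48 h libraries, against 97.04, 94.8 and 95.95 CPM in the AS1411 24 h libraries, and rose by 0.65 ± 0.04 (SE, adjusted p = 2.4e-09). H2-K1 had 29.95 and 29.99 CPM in the AS1411 48 h libraries, against 13.95, 11.98 and 11.6 CPM in the AS1411 24 h libraries, and rose by 1.26 ± 0.10 (SE, adjusted p = 1.5e-08). The 48 h replicates of both heavy chains nearly coincided and lay above every 24 h library. H2-Q4 had 5.88 and 5.02 CPM in the AS1411 48 h libraries, against 1.52, 1.46 and 1.21 CPM in the AS1411 24 h libraries, and rose by 1.98 ± 0.23 (SE, adjusted p = 1.5e-06). Psme2, a proteasome activator induced by interferon, had 34.2 and 34.3 CPM in the AS1411 48 h libraries, against 22.4, 21.4 and 23.3 CPM in the AS1411 24 h libraries, and rose by 0.61 ± 0.09 (SE, adjusted p = 1.9e-05). The H2 genes are close paralogs, and how reads that fit several of them were counted is not given in the sources used here, so their values are uncertain. B2m, the shared light chain, did not pass the test, at 0.07.

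More cell cycle genes rose than fell over the second day in AS1411 cells, in which Cdkn1a rose as well. Of 60 tested genes of G2/M and mitosis, 30 were higher (50%, against 24.5%) and 4 lower, with a median of 0.18, while in control cells 13 were higher and 7 lower. The difference was above 0 for 22 and below 0 for 2. Cenpe, a kinetochore motor, had 128 and 117 CPM in the AS1411 48 h libraries, against 70.8, 69.8 and 59.9 CPM in the AS1411 24 h libraries, with a log2 change of 0.88 ± 0.07 (SE, adjusted p = 1.5e-07). Ccnb2, cyclin B2, rose by 0.61 and Mki67, the proliferation marker Ki-67, by 0.69. Cdk1 stood at -0.05, Top2a at -0.08 and Ccna2 at 0.01, none past the test. Bub3, a checkpoint protein, fell by 0.38.

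Of 67 tested genes of G1/S and replication, 27 were higher (40.3%, against 24.5% of all genes) and 11 lower (16.4%, against 24.6%) with AS1411. In control cells 1 was higher (1.49%, against 11.6%) and 14 were lower (20.9%, against 13.2%). The difference was above 0 for 24 and below 0 for 6. Cyclin E and the origin licensing genes were among those that rose, Ccne1 by 0.56, Ccne2 by 0.54, Cdc6 by 0.64 and Orc1 by 0.69. The helicase genes Mcm2, Mcm3, Mcm4 and Mcm6 did not pass the test, at -0.01, -0.08, 0.04 and -0.05. Pold2, an accessory subunit of DNA polymerase delta, had 80.2 and 79.6 CPM in the AS1411 48 h libraries, against 155, 163 and 162 CPM in the AS1411 24 h libraries, and 153, 145 and 149 CPM in control cells at 48 h and 173, 162 and 168 CPM in control cells at 24 h. The AS1411 48 h libraries lay far below the others. Pold2 fell by 1.0 ± 0.05 (SE, adjusted p = 1.7e-11), with a control change of -0.17 (adjusted p = 0.00482) and a difference of -0.83 ± 0.06 (SE, adjusted p = 2.8e-08).

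More CDK inhibitors and quiescence genes rose than fell in both. With AS1411 17 of 34 were higher (50%, against 24.5% of all genes) and 8 lower (23.5%, near the 24.6% of all genes). In control cells 18 were higher (52.9%, against 11.6%) and 7 lower (20.6%, against 13.2%), with medians of 0.32 and 0.30. The inhibitors themselves went different ways in AS1411 cells. Cdkn1b (p27) rose by 0.31 and Cdkn2c (p18) fell by 0.33. Reads counted for Cdkn2a, the gene of p16 and p19Arf, fell by 0.40. Whether these cells make p16 or p19Arf was not tested, so this fall is only one of counted reads. Ccng2, an atypical cyclin of arrested cells, rose by 1.54 with AS1411 and 0.82 in control cells. Gas1, a growth-arrest gene, had 29.04 and 23.3 CPM in the AS1411 48 h libraries, against 55.6, 61.1 and 65.1 CPM in the AS1411 24 h libraries, and 219, 168 and 227 CPM in control cells at 48 h and 135, 131 and 123 CPM in control cells at 24 h. Its log2 change was -1.21 with AS1411 and 0.66 in control cells, and the difference was -1.87 ± 0.20 (SE, adjusted p = 2.5e-04).

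Several histone genes of the clusters rose in polyadenylated RNA, while some variant genes outside the clusters fell. The list of histone genes and variants had 6 higher and 5 lower of 15 with AS1411 (40% and 33.3%, against 24.5% and 24.6% of all genes), with a median of 0.05, or -0.03 without Hist1h1b. Messages of the cluster genes normally end in a stem-loop without a poly(A) tail and are made in S phase, so this assay sees mainly the copies that carry a tail. The set of all tested genes named Hist was chosen after the values were seen. Of these 11 genes, 7 pass the filter on low counts without the AS1411 48 h libraries. Of the 7, 6 were higher at 48 h with AS1411 (24.5% of all genes were) and none lower by edgeR, with a median of 1.49, and none was called in control cells, where the median was -0.09. These counts of none were 0 at an unadjusted p under 0.05 and by DESeq2 too. The difference was above 0 for 5 of the 7. The other 4 include 3 that were called higher and were nearly absent elsewhere, Hist1h1a, Hist1h1b and Hist1h1d. Hist1h1c, the linker histone H1.2, had 68.9 and 72.9 CPM in the AS1411 48 h libraries, against 19.004, 20.6 and 17.1 CPM in the AS1411 24 h libraries, and 16.96, 19.1 and 21.7 CPM in control cells at 48 h and 23.3, 21.6 and 20.4 CPM in control cells at 24 h. Hist1h2bc, an H2B gene, had 34.1 and 35.9 CPM in the AS1411 48 h libraries, against 5.68, 6.94 and 7.36 CPM in the AS1411 24 h libraries. Both rose well clear of their 24 h libraries, by 1.91 ± 0.09 (SE, adjusted p = 1.6e-11) for Hist1h1c and 2.39 ± 0.15 (SE, adjusted p = 4.4e-09) for Hist1h2bc. Hist1h1b was nearly silent at 24 h, with 3.99 and 3.91 CPM in the AS1411 48 h libraries, against 0.0631, 0.292 and 0.105 CPM in the AS1411 24 h libraries. Hist1h4i, an H4 gene, did not pass the test, at 0.05. Close copies within these clusters make single genes uncertain. Slbp, the protein that binds the stem-loop, had 252 and 256 CPM in the AS1411 48 h libraries, against 146, 145 and 154 CPM in the AS1411 24 h libraries, with a log2 change of 0.78 ± 0.04 (SE, adjusted p = 2.4e-10). Among the variants, H2afz fell by 0.40, H2afx by 0.44 and H3f3a by 0.34.

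Genes of ribosome production fell in both, further with AS1411 for some. Of 70 tested biogenesis factors, 58 were lower (82.9%, against 24.6% of all genes) and 1 higher with AS1411, with a median of -0.37. In control cells 54 were lower and none higher by edgeR (0 at an unadjusted p under 0.05 and by DESeq2), against 13.2% and 11.6% of all genes, with a median of -0.24. The difference was below 0 for 19 members and above 0 for 4. Ncl, the gene of nucleolin, had 1404 and 1652 CPM in the AS1411 48 h libraries, against 2296, 2386 and 2411 CPM in the AS1411 24 h libraries, and 2738, 3294 and 2714 CPM in control cells at 48 h and 3412, 3535 and 3464 CPM in control cells at 24 h. AS1411 cells at 48 h had the lowest levels of the 4 groups. Ncl fell by 0.63 ± 0.09 (SE, adjusted p = 1.7e-04) with AS1411 and by 0.25 in control cells. The difference of -0.38 ± 0.12 (SE, adjusted p = 0.0345) was lost without any 1 of 5 libraries, for example at -0.28 with an adjusted p of 0.102 without AS1411 replicate 1 at 48 h.

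Further members of this list were named by rule. Npm1, nucleophosmin of the nucleolus, had 794 and 871 CPM in the AS1411 48 h libraries, against 1112, 1179 and 1197 CPM in the AS1411 24 h libraries, and fell by 0.48 ± 0.06 (SE, adjusted p = 3.2e-06), with a control change of -0.07 (adjusted p = 0.331). Ubtf, which loads RNA polymerase I onto ribosomal DNA, had 194 and 207 CPM in the AS1411 48 h libraries, against 304, 322 and 313 CPM in the AS1411 24 h libraries, and 360.3, 374 and 345 CPM in control cells at 48 h and 375, 377 and 380.1 CPM in control cells at 24 h. Ubtf had a control change of -0.07 (adjusted p = 0.236), not past the test, and fell by 0.64 ± 0.05 (SE, adjusted p = 4.4e-09) with AS1411, a difference of -0.57 ± 0.06 (SE, adjusted p = 2.3e-06). Gar1, a protein of the pseudouridylation particles, had 49.4 and 50.8 CPM in the AS1411 48 h libraries, against 80.8, 84.7 and 82.3 CPM in the AS1411 24 h libraries, with a log2 change of -0.72 ± 0.07 (SE, adjusted p = 7.7e-08). Rrs1 and Ebna1bp2, assembly factors of the large subunit, changed by -0.67 ± 0.06 (SE, adjusted p = 2.6e-08) and -0.61 ± 0.05 (SE, adjusted p = 3.0e-08). Polr1b, a core subunit of RNA polymerase I, fell by 0.75. Nop56, a core protein of the methylation particles, was an exception in size, at -0.35 with AS1411 and -0.48 in control cells.

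The ribosomal protein genes fell together by a small amount. Of 82 tested, 61 were lower (74.4%, against 24.6% of all genes) and 1 higher with AS1411, with a median of -0.24, and 14 were lower in control cells (17.1%, against 13.2%). With scaling by total counts, 37 were lower. Rpl14 had 139 and 144 CPM in the AS1411 48 h libraries, against 181, 195 and 196 CPM in the AS1411 24 h libraries, and fell by 0.43 ± 0.05 (SE, adjusted p = 5.5e-07). This fall was larger than the spread within either group. Rpl10 and Rpl28 fell further, by 0.70 ± 0.08 (SE, adjusted p = 6.2e-07) and 0.80 ± 0.10 (SE, adjusted p = 1.9e-06). Many ribosomal protein genes have processed pseudogenes that can share their reads, so single values are uncertain.

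Translation factors fell in part. Many have a mean log2 CPM above 8. Of all genes, 58.3% at 8 and above on the control scale and 39.3% from 6 to 8 were lower with AS1411. Of the translation factors, 20 of 33 were lower with AS1411 (60.6%, against 24.6% of all genes) and 4 higher, against 9 lower and 1 higher in control cells. The count lower was 12 without AS1411 replicate 1 at 48 h, and 12 with scaling by total counts. Eif5a, which helps ribosomes past proline stretches, had 968 and 1034 CPM in the AS1411 48 h libraries, against 1639, 1734 and 1714 CPM in the AS1411 24 h libraries, and fell by 0.76 ± 0.05 (SE, adjusted p = 5.5e-10), with a difference from control of -0.64 ± 0.06 (SE, adjusted p = 8.0e-07). Eif4e, the cap-binding protein, had 103 and 106 CPM in the AS1411 48 h libraries, against 139.8, 142 and 151 CPM in the AS1411 24 h libraries, and fell by 0.47 ± 0.05 (SE, adjusted p = 7.3e-07). Eif4a1, the helicase beside it, fell by 0.52 ± 0.05 (SE, adjusted p = 3.3e-07), and Eif3b, a scaffold of the initiation complex, by 0.38 ± 0.05 (SE, adjusted p = 3.3e-06). Eef1a1, the main elongation factor, did not pass the test, at -0.01.

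In the MYC network the repressors rose and growth targets fell. Of 33 tested members, 19 were lower (57.6%, against 24.6% of all genes) and 4 higher with AS1411, and 13 lower and 4 higher in control cells. All 4 members that rose, Mxd1, Mxd3, Mxd4 and Mnt, make proteins that compete with Myc for Max. Srm, spermidine synthase, had 189 and 195 CPM in the AS1411 48 h libraries, against 359, 377 and 374 CPM in the AS1411 24 h libraries, and 343, 365 and 335 CPM in control cells at 48 h and 454, 449 and 431 CPM in control cells at 24 h. Srm fell by 0.95 ± 0.05 (SE, adjusted p = 3.0e-11), with a difference of -0.59 ± 0.06 (SE, adjusted p = 1.7e-06). Ran, the GTPase of nuclear transport, had 384 and 389 CPM in the AS1411 48 h libraries, against 624, 644 and 642 CPM in the AS1411 24 h libraries, and fell by 0.72 ± 0.04 (SE, adjusted p = 1.2e-10). Set, a histone chaperone, had 124 and 132 CPM in the AS1411 48 h libraries, against 199.7, 209.6 and 204 CPM in the AS1411 24 h libraries, and fell by 0.67 ± 0.05 (SE, adjusted p = 2.0e-09). The AS1411 48 h libraries were the lowest of all 11 for each of these.

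Most of the actin cytoskeleton genes driven by SRF fell. With AS1411 18 of 26 were lower (69.2%, against 24.6%) and 3 higher, with a median of -0.36, and in control cells 12 were lower and none higher by edgeR, 2 at an unadjusted p under 0.05 and 1 by DESeq2. The count lower with AS1411 was 11 without AS1411 replicate 2 at 48 h. Actb, beta-actin, had 2426 and 2327 CPM in the AS1411 48 h libraries, against 4244, 4336 and 4257 CPM in the AS1411 24 h libraries, and 3564, 3863 and 3954 CPM in control cells at 48 h and 5015, 5105 and 4851 CPM in control cells at 24 h. Actb is often used as a reference gene for normalization, and it fell by 0.85 ± 0.04 (SE, adjusted p = 7.6e-11), with a difference from control of -0.45 ± 0.06 (SE, adjusted p = 1.9e-05). Cnn2, calponin 2, had 415 and 381 CPM in the AS1411 48 h libraries, against 683, 669.95 and 698 CPM in the AS1411 24 h libraries, and fell by 0.78 ± 0.05 (SE, adjusted p = 5.1e-10). Tagln2, transgelin 2, had 419 and 407 CPM in the AS1411 48 h libraries, against 661, 659 and 657 CPM in the AS1411 24 h libraries, and fell by 0.67 ± 0.04 (SE, adjusted p = 5.1e-10). Tpm4, a tropomyosin, fell by 0.45 ± 0.04 (SE, adjusted p = 2.9e-08). Srf itself fell by 0.50 and its coactivator gene Mrtfa by 0.55. The 3 members called higher were Tes, at 0.84, Filip1l, at 0.17, and Cnn1 (calponin 1), at 1.25 with an adjusted p of 0.0464. Cnn1 was weak, with 1.37 and 0.978 CPM in the AS1411 48 h libraries, against 0.821, 0.0730 and 0.526 CPM in the AS1411 24 h libraries.

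Chaperone genes fell for the most part. With AS1411 18 of 32 were lower (56.2%, against 24.6% of all genes) and 6 higher, and 11 were lower with scaling by total counts. In control cells 7 were lower and 4 higher. Hspa8, the constitutive Hsc70, had 655 and 623 CPM in the AS1411 48 h libraries, against 973, 988 and 969.7 CPM in the AS1411 24 h libraries, and fell by 0.61 ± 0.05 (SE, adjusted p = 6.4e-09), with a difference of -0.60 ± 0.06 (SE, adjusted p = 1.4e-06). Hspe1, the mitochondrial Hsp10, had 83.4 and 86.9 CPM in the AS1411 48 h libraries, against 125, 132 and 133 CPM in the AS1411 24 h libraries, and fell by 0.61 ± 0.05 (SE, adjusted p = 8.7e-09). Fkbp4, a cochaperone of Hsp90, had 276 and 257 CPM in the AS1411 48 h libraries, against 384, 411 and 403 CPM in the AS1411 24 h libraries, and fell by 0.59 ± 0.05 (SE, adjusted p = 1.0e-08). The small heat shock proteins stood on the other side. Cryab, alpha-B crystallin, had 92.3 and 85.8 CPM in the AS1411 48 h libraries, against 48.9, 48.3 and 51.1 CPM in the AS1411 24 h libraries, and rose by 0.85 ± 0.06 (SE, adjusted p = 1.5e-09), and Hspb1 (Hsp27) rose by 0.47. Of 31 proteasome subunits, 15 were lower (48.4%, against 24.6%) and 2 higher with AS1411, and none was called in either direction in control cells by edgeR, where 11.6% and 13.2% of all genes were. At an unadjusted p under 0.05, 3 were higher and 2 lower there, and DESeq2 called 0. The 48.4% of proteasome subunits lower with AS1411 is near the shares of genes at like levels. Of all genes, 39.3% from 6 to 8 on the control scale and 58.3% at 8 and above were lower.

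Cholesterol synthesis genes rose in control cells and for the most part did not in AS1411 cells. These genes are turned on by Srebf2 when sterols run low. Of 31 tested, 9 were higher and 8 lower with AS1411, near the shares of all genes, while 26 were higher and 1 lower in control cells, against 11.6% and 13.2% of all genes. The medians were 0.02 and 0.47. The difference was below 0 for 17 members and above 0 for 1. Sqle, squalene epoxidase, had 109 and 101 CPM in the AS1411 48 h libraries, against 133, 139.7 and 144 CPM in the AS1411 24 h libraries, and 359.6, 379.9 and 308 CPM in control cells at 48 h and 245, 251 and 229 CPM in control cells at 24 h. Its log2 change was -0.40 ± 0.08 (SE, adjusted p = 8.7e-04) with AS1411 and 0.53 (adjusted p = 7.5e-05) in control cells. Hmgcs1, an early enzyme of the pathway, changed by 0.27 with AS1411, not past the test, and 0.95 in control cells. Srebf2 fell by 0.51 with AS1411 and changed by 0.29 in control cells. Genes of sterol export and receptor decay rose in both, Abca1 by 1.29 and 0.92 and Mylip by 1.66 and 1.03.

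More genes of fatty acid synthesis and of glycolysis were called higher in control cells than in AS1411 cells. Of 21 fatty acid synthesis genes, 7 were higher and 5 lower with AS1411 (33.3% and 23.8%, against 24.5% and 24.6% of all genes), against 10 higher (47.6%, against 11.6%) and none lower in control cells by edgeR (1 at an unadjusted p under 0.05 and 0 by DESeq2), and the difference was below 0 for 10. Elovl6, a fatty acid elongase, changed by -0.45 with AS1411 and 0.62 in control cells. Of 32 glycolysis and hypoxia genes, 9 were higher and 11 lower with AS1411 (28.1% and 34.4%, near the shares of all genes), against 14 higher (43.8%, against 11.6%) and 1 lower in control cells, and the difference was below 0 for 16. Aldoa, aldolase A, had 484 and 499 CPM in the AS1411 48 h libraries, against 576, 609 and 600.5 CPM in the AS1411 24 h libraries, and 810.3, 790.1 and 754 CPM in control cells at 48 h and 661, 639 and 641 CPM in control cells at 24 h, with log2 changes of -0.28 and 0.28. How reads that fit several places of the genome were counted is not given in the sources used here, so the values of Gapdh are uncertain. Gapdh, a glycolytic enzyme often used for normalization, had 112 and 109 CPM in the AS1411 48 h libraries, against 127, 122 and 121 CPM in the AS1411 24 h libraries. Its log2 change of -0.16 ± 0.06 (SE, adjusted p = 0.0404) was lost in 10 of the alternatives tried, among them without any 1 of the 5 AS1411 libraries, with adjusted p between 0.0619 and 0.177, and with scaling by total counts, at -0.06 with an adjusted p of 0.404.

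**Figure D4:**
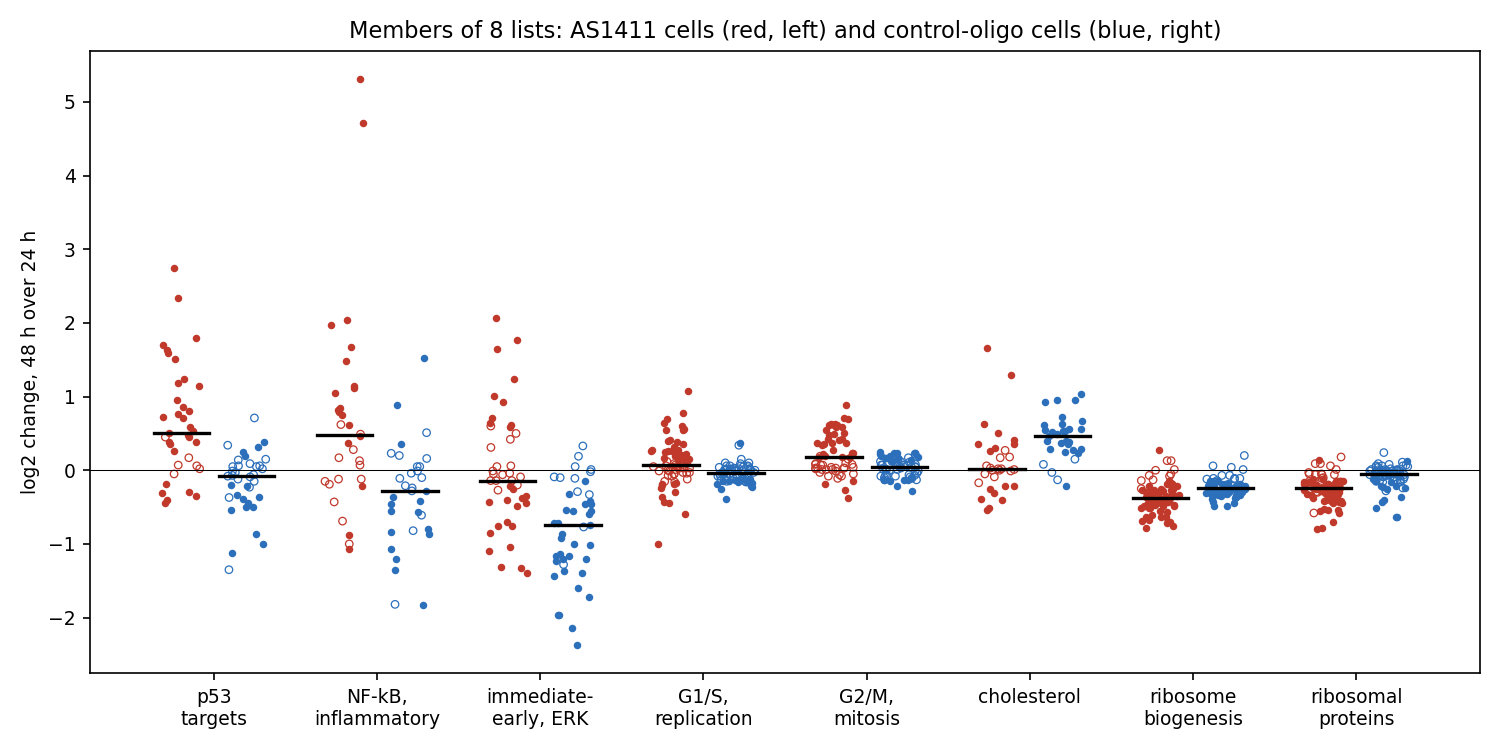
Each point is a member of 1 of 8 lists, with its log2 change, 48 h over 24 h, in AS1411 cells (red, left of each pair) or control cells (blue, right), filled where the adjusted p was under 0.05, and bars mark medians. Red bars lie above blue for p53 targets (0.50 and -0.08), NF-kB genes and immediate-early genes, and below blue for cholesterol genes (0.02 and 0.47).

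Transcripts encoded by mitochondrial DNA took a smaller share at 48 h. They made up 1.19% and 1.07% of counts in the AS1411 48 h libraries, against 1.71%, 1.29% and 1.36% in the AS1411 24 h libraries. Of 9 tested, 3 were lower (33.3%, against 24.6%) and none higher by edgeR (0 at an unadjusted p under 0.05 and by DESeq2), and in control cells 2 were higher. The 3 that fell were mt-Cytb at -0.89, mt-Nd2 at -0.83 and mt-Nd1 at -0.66. The ribosomal RNA genes mt-Rnr1 and mt-Rnr2 stood above 0 with AS1411, at 0.52 and 0.19, neither past the test. Of 74 nuclear genes of the respiratory chain, 8 were higher (10.8%, against 24.5% of all genes) and 18 lower (24.3%, near the 24.6% of all genes), with a median of -0.02, which was 0.08 with scaling by total counts.

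The rule also took the 12 largest falls among genes with a mean log2 CPM of at least 2. Gjb2, the gap junction protein connexin 26 (ENSMUSG00000046352, chr14:57098600-57104702, minus strand), had 74.2 and 70.1 CPM in the AS1411 48 h libraries, against 296, 284 and 269.6 CPM in the AS1411 24 h libraries, and 302, 331 and 346 CPM in control cells at 48 h and 467, 465 and 452 CPM in control cells at 24 h. The AS1411 48 h libraries were the lowest by a wide margin. Gjb2 fell by 1.97 ± 0.06 (SE, adjusted p = 6.0e-14), with a control change of -0.50 (adjusted p = 5.7e-07) and a difference of -1.47 ± 0.08 (SE, adjusted p = 2.0e-10). Cdh13, T-cadherin, had 27.6 and 27.9 CPM in the AS1411 48 h libraries, against 94.4, 92.98 and 98.6 CPM in the AS1411 24 h libraries, and 68.6, 66.7 and 69.1 CPM in control cells at 48 h and 97.4, 98.4 and 93.4 CPM in control cells at 24 h. It fell by 1.78 ± 0.06 (SE, adjusted p = 6.0e-14), with a difference of -1.28 ± 0.07 (SE, adjusted p = 5.6e-10). Sorcs2, a sortilin-family receptor, had 4.85 and 3.72 CPM in the AS1411 48 h libraries, against 20.96, 21.8 and 22.5 CPM in the AS1411 24 h libraries, and fell by 2.33 ± 0.20 (SE, adjusted p = 8.7e-07). S1pr3, a receptor for sphingosine 1-phosphate, had 6.22 and 3.78 CPM in the AS1411 48 h libraries, against 17.2, 19.3 and 19.7 CPM in the AS1411 24 h libraries, and fell by 1.89 ± 0.15 (SE, adjusted p = 2.9e-08). Slc1a3, a glutamate transporter, had 16.5 and 12.4 CPM in the AS1411 48 h libraries, against 57.3, 60.8 and 57.3 CPM in the AS1411 24 h libraries, and fell by 2.01 ± 0.24 (SE, adjusted p = 2.3e-04). In all of these genes the 48 h libraries lay below every 24 h library.

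Other large falls were shared with control cells or rested on weak signal. Edn1, endothelin-1, had 26.4 and 20.6 CPM in the AS1411 48 h libraries, against 78.03, 74.7 and 69.7 CPM in the AS1411 24 h libraries, and 19.9, 20.8 and 27.3 CPM in control cells at 48 h and 75.1, 73.7 and 62.6 CPM in control cells at 24 h. Edn1 fell by 1.65 ± 0.14 (SE, adjusted p = 4.7e-06) with AS1411 and changed by -1.63 (adjusted p = 8.1e-06) in control cells, with a difference of -0.02 ± 0.19 (SE, adjusted p = 0.953). Ppbp, a platelet-type chemokine, had 2.17 and 2.02 CPM in the AS1411 48 h libraries, against 9.98, 9.79 and 9.36 CPM in the AS1411 24 h libraries, and fell by 2.2 ± 0.17 (SE, adjusted p = 6.5e-09), with a control change of -1.95 (adjusted p = 4.1e-10). The control cells held more Ppbp than the AS1411 cells at either time, 4.91, 6.55 and 6.47 CPM at 48 h and 22.5, 24.8 and 22.4 CPM at 24 h. Cbln1, a secreted synaptic organizer, had 3.82 and 3.06 CPM in the AS1411 48 h libraries, against 13.8, 13.6 and 12.6 CPM in the AS1411 24 h libraries, and fell by 1.94 ± 0.21 (SE, adjusted p = 1.4e-06). Pappa, a protease of IGF-binding proteins, had 1.598 and 2.15 CPM in the AS1411 48 h libraries, against 7.39, 7.09 and 7.58 CPM in the AS1411 24 h libraries, and fell by 1.98 ± 0.40 (SE, adjusted p = 0.0022). Col6a3, a collagen VI chain, had 2.05 and 1.24 CPM in the AS1411 48 h libraries, against 5.49, 5.41 and 4.47 CPM in the AS1411 24 h libraries, and fell by 1.6 ± 0.45 (SE, adjusted p = 0.013). The Col6a3 call was lost without AS1411 replicate 2 at 48 h, at -1.31 with an adjusted p of 0.0905. Prl2c2, a proliferin, had 1.43 and 0.782 CPM in the AS1411 48 h libraries, against 4.48, 5.04 and 4.58 CPM in the AS1411 24 h libraries, and fell by 2.05 ± 0.46 (SE, adjusted p = 0.00381), and its near-identical paralogs make its counts uncertain.

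Some genes fell with AS1411 and rose with the control DNA. Mgat3, which adds the bisecting sugar to N-glycans, had 32.4 and 32.1 CPM in the AS1411 48 h libraries, against 44.1, 43.1 and 45.4 CPM in the AS1411 24 h libraries, and 100.4, 94.5 and 93.3 CPM in control cells at 48 h and 50.8, 53.1 and 46.5 CPM in control cells at 24 h. It fell by 0.46 ± 0.07 (SE, adjusted p = 1.9e-05), changed by 0.94 (adjusted p = 6.2e-10) in control cells, and had a difference of -1.39 ± 0.09 (SE, adjusted p = 1.9e-09). Ephb2, an ephrin receptor, had 40.6 and 38.01 CPM in the AS1411 48 h libraries, against 62.4, 64.4 and 65.2 CPM in the AS1411 24 h libraries, and 91.3, 94.9 and 95.2 CPM in control cells at 48 h and 69.04, 70.04 and 69.6 CPM in control cells at 24 h. Ephb2 fell by 0.70 ± 0.06 (SE, adjusted p = 1.2e-08) and had a difference of -1.13 ± 0.07 (SE, adjusted p = 2.4e-09). The control 48 h libraries were the highest and the AS1411 48 h libraries the lowest for both. The opposite case was Ptpn22, a tyrosine phosphatase best known from lymphocytes, with 25.96 and 30.6 CPM in the AS1411 48 h libraries, against 14.8, 13.7 and 14.7 CPM in the AS1411 24 h libraries, and 2.77, 4.22 and 2.74 CPM in control cells at 48 h and 10.9, 14.3 and 13.6 CPM in control cells at 24 h. Ptpn22 rose by 0.97 ± 0.12 (SE, adjusted p = 5.1e-06) with AS1411 and changed by -1.99 (adjusted p = 6.3e-08) in control cells.

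Of 49 collagen and matrix genes, 20 were lower (40.8%, against 24.6% of all genes) and 8 higher (16.3%, against 24.5%) with AS1411. In control cells 8 were lower and 8 higher (16.3% each, near the 13.2% and 11.6% of all genes). Col1a1 and Col1a2, the chains of type I collagen, fell by 0.73 and 0.79. The protease genes Mmp10 and Mmp13 did not pass the test with AS1411, at 0.91 and 0.26, and fell in control cells by 2.83 and 3.17. Of 24 YAP pathway and CCN genes, 12 were lower (50%, against 24.6%) and 4 higher (16.7%, against 24.5%), and Ccn1 and Ccn2, matricellular targets of YAP, changed by -1.32 and -0.98 with AS1411 and by -1.72 and -2.02 in control cells. Of 28 TGF-beta genes, 12 were lower (42.9%, against 24.6%) and 4 higher (14.3%, against 24.5%).

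Of 55 lysosome and autophagy genes, 26 were higher (47.3%, against 24.5% of all genes) and 11 lower (20%, against 24.6%) with AS1411. In control cells 13 were higher (23.6%, against 11.6%) and 9 lower (16.4%, against 13.2%). Sqstm1, the autophagy receptor p62, had 703 and 816 CPM in the AS1411 48 h libraries, against 363, 366 and 373 CPM in the AS1411 24 h libraries, with a log2 change of 1.05 ± 0.06 (SE, adjusted p = 9.6e-09) and a difference from control of 0.68 ± 0.09 (SE, adjusted p = 5.2e-05). Tfeb, a master factor of lysosomal genes, fell by 0.55. Rragd, a GTPase that recruits mTORC1 to lysosomes, rose by 1.9, but it passed the filter on low counts only through the AS1411 48 h libraries. Endoplasmic reticulum folding genes had 11 higher and 2 lower of 26 with AS1411 (42.3% and 7.69%, against 24.5% and 24.6% of all genes), and 14 higher in control cells (53.8%, against 11.6%). Dnajb9, a cochaperone of that compartment, rose by 1.22 with AS1411 and stood at -0.01 in control cells, while Hspa5 (BiP), the main chaperone, rose by 0.35 and 0.33. The shares of the next lists with AS1411 are to be set against 24.5% of all genes higher and 24.6% lower. NRF2 and glutathione genes had 8 higher and 11 lower of 31 (25.8% and 35.5%), and circadian clock genes had 3 higher and 7 lower of 19 (15.8% and 36.8%). The list of senescence genes had 8 higher and 7 lower of 22 (36.4% and 31.8%), with a median of 0.10 that was -0.21 without the 3 members that passed the filter only through the AS1411 48 h libraries. Small RNA host transcripts had 3 higher and 3 lower of 18 (16.7% and 16.7%), EGF receptor ligands and receptors had 2 higher and 4 lower of 11 (18.2% and 36.4%), and small leucine-rich proteoglycans none higher and 1 lower of 7 by edgeR (0 higher at an unadjusted p under 0.05 and by DESeq2). In control cells Hbegf, Errfi1, Ereg, Areg, Tgfa and Nrg1 of the EGF receptor list were lower and Erbb3 higher. The difference was above 0 for Hbegf, Errfi1, Ereg, Areg and Tgfa, and below 0 for Erbb2 and Nrg1. Ereg, for example, changed by -0.76 with AS1411 and -2.14 in control cells.

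**Figure D5:**
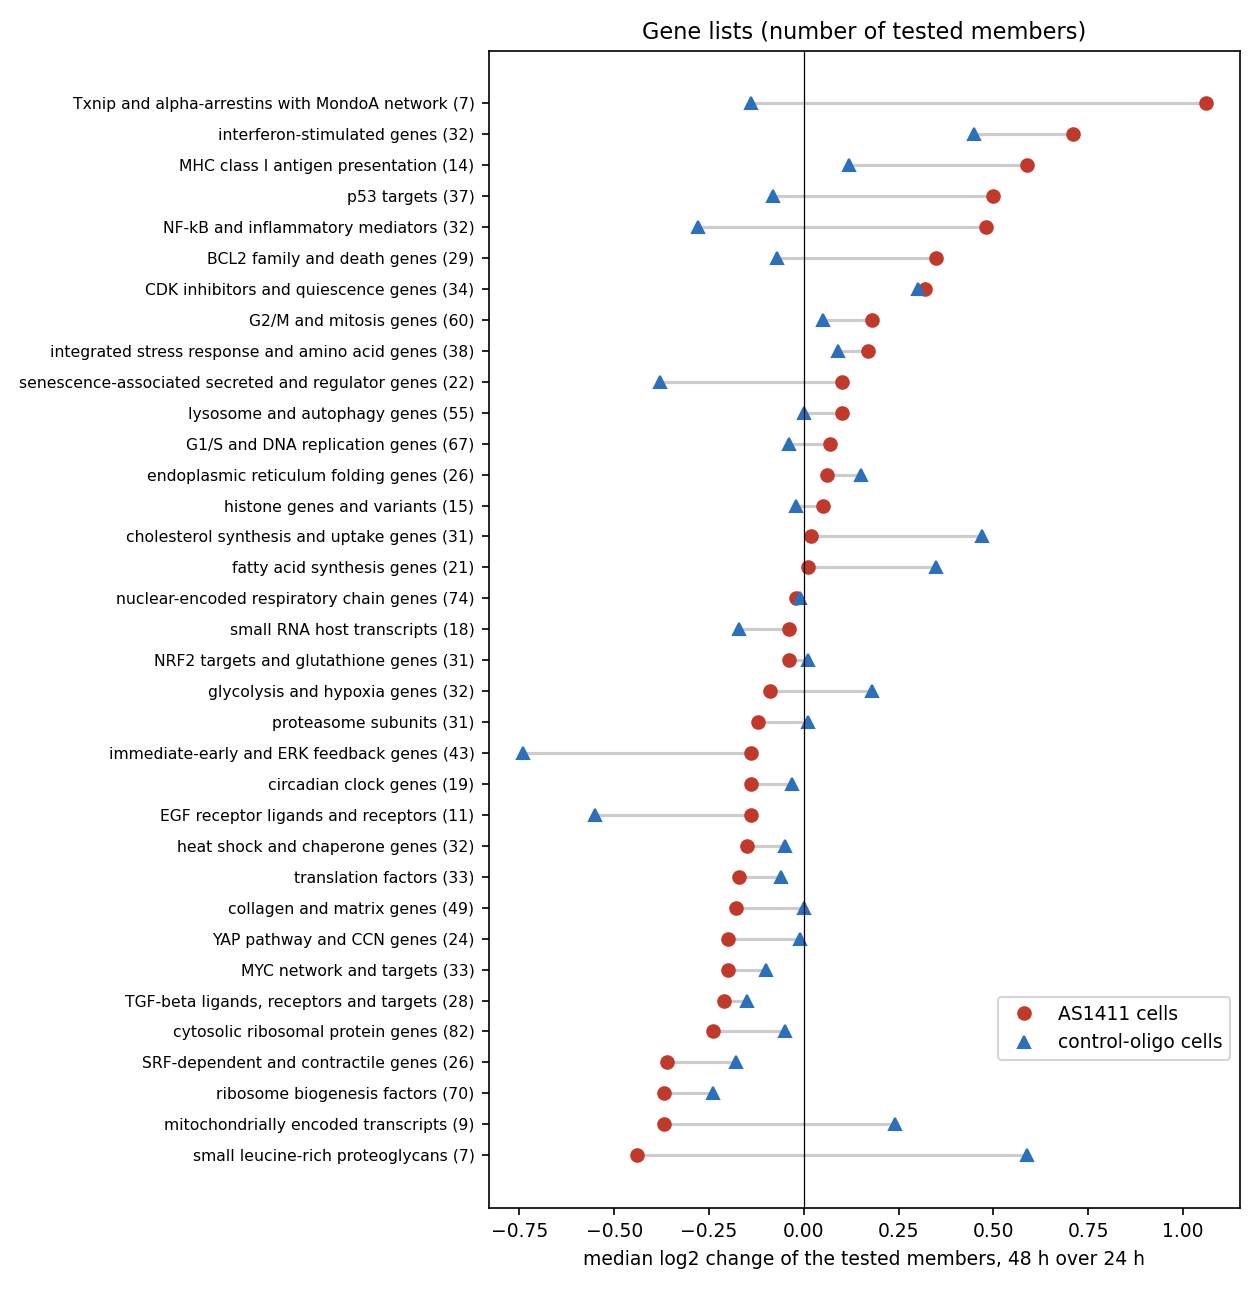
For each gene list, the median log2 change, 48 h over 24 h, of its tested members is given for AS1411 cells (circles) and control cells (triangles), ordered by the AS1411 value, with the number of tested members in brackets. The Txnip and alpha-arrestin list stands highest with AS1411, at 1.06, against -0.14 in control cells. With scaling by total counts the medians of the glycolysis, NRF2, respiratory chain and small RNA host lists turn above 0. Without members that pass the filter on low counts only through the AS1411 48 h libraries, those of the fatty acid, senescence and histone lists turn below 0.

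Markers of blood, muscle, endothelium, glia and adipocytes were at low levels, while the epithelial and neuronal sums were higher. Summed blood markers (2 of 10 in the table, Cd68 and Csf1r) ran from 12.5 to 13.1 CPM at 48 h, against 5.18 to 6.88 CPM at 24 h. Muscle markers (2 of 8, Des and Ttn) ran from 6.16 to 8.01 CPM, against 1.01 to 1.52 CPM. Endothelial markers (5 of 8) ran from 3.13 to 3.99 CPM, against 4.84 to 6.06 CPM, and glial markers (3 of 8) from 1.82 to 2.11 CPM, against 1.10 to 1.33 CPM. Epithelial (2 of 9), neuronal (3 of 8) and adipocyte (3 of 8) markers ran from 149 to 160.4, from 74.2 to 75.9 and from 8.21 to 11.2 CPM at 48 h, against 155 to 159.9, 61.2 to 68.5 and 9.83 to 11.1 CPM at 24 h. The part of the markers at low levels in the rise of weakly expressed genes was not tested.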

How the data were processed

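Polyadenylated RNA of 11 NIH-3T3 samples was sequenced. The authors deposited raw read counts per gene for 15022 Ensembl genes, the unit used here, and a table of normalized values that was not used. Per the submitters' processing notes, bcl2fastq, cutadapt, STAR, HTSeq and DESeq2 were used with the GRCm38 build. Versions and settings, including the use of strand, were not given in the sources used here, so reads of overlapping antisense genes cannot be told apart. The table's smallest total of a gene is 8 counts, so still weaker genes are not analysed here. Gene names and positions came from GENCODE M21, which held 14973 of the IDs and lacked 49.

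Counts were fitted with edgeR 4.0.16 (limma 3.58.1, R 4.3.3), after filterByExpr (minimum count 10, minimum total 15) and TMM scaling. The quasi-likelihood fit had 1 coefficient per group over all 11 libraries and 7 residual degrees of freedom, which the groups share because AS1411 at 48 h has 2 libraries. It tested 13040 genes, and a call is an adjusted p under 0.05. CPM are not per length, so levels are not compared between genes. A permutation of 2 against 3 libraries cannot go below p = 0.10, so single values were not tested that way. The fit was tested on simulated data first. Nothing in the labels says that replicate numbers pair libraries, and they were not used as a block in this fit.

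The 12 largest rises and falls, the 6 genes a side with the smallest adjusted p of the difference, the 6 largest differences among genes called in opposite directions (all at a mean log2 CPM of at least 2, without overlap between the AS1411 libraries of the 2 times and without clone-named genes), up to 4 members of each list with most members called in 1 direction, and 9 fixed genes were named by rule. Of the genes so named, 3 are not reported here. Lists held 1334 entries in 43 lists. The members and lists were chosen with earlier results of these data known, so no set test was run and no list is independent support. Alternatives were other scalings, filters, the DESeq2 1.42.0 Wald test, a stricter threshold, a replicate block, fewer groups in the fit and leaving out each library. Expression tiers by control level, the filter on low counts without the AS1411 48 h libraries, the genes named Hist and the CACGAG and p53 motifs were added after the data had been seen.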

Additional observations from a re-analysis of the deposited data

Results flagged for a closer look

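The change over the second day differed between AS1411 and control cells for many genes, which is what marked the values given here. The difference, the AS1411 change minus the control change on the log2 scale, was called above 0 for 1749 genes and below 0 for 1845 genes of 13040 by edgeR's quasi-likelihood test with Benjamini-Hochberg adjustment. Of the 78 genes named by rule and reported, 70 passed this test.

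Among these named genes the AS1411 change lay above the control change for Txnip (3.50), Ptpn22 (2.95), Cdkn1a (2.68), Hist1h2bc (2.57), Ccl2 (2.55), Atf3 (2.53), Traf1 (2.51), Ppp1r15a (2.20), Arrdc3 (2.15), Hist1h1c (2.09), Trp53inp1 (2.04) and Gadd45a (2.04). Differences between 1 and 2 were found for H2-Q4 (1.91), Ddit4 (1.82), Resf1 (1.79), Acy3 (1.78), Pmaip1 (1.75), Mdm2 (1.71), Arrdc4 (1.70), Cxcl10 (1.69), Sesn2 (1.54), Ddit3 (1.53), Plk2 (1.47), Nfkb2 (1.32), Bbc3 (1.13), Notch3 (1.10) and H2-K1 (1.06). Smaller differences above 0 were found for Arrdc2 (0.93), Ccng1 (0.77), H2-D1 (0.58), Cryab (0.50), Psme2 (0.49), Myc (0.30), Trp53 (0.25), Eif2ak2 (0.25) and Samhd1 (0.23).

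On the other side, the AS1411 change lay below the control change for Pappa (-2.49), Sorcs2 (-1.84), Slc1a3 (-1.60), S1pr3 (-1.53), Gjb2 (-1.47), Mgat3 (-1.39), Cdh13 (-1.28), Ephb2 (-1.13) and Cbln1 (-1.11). Smaller differences below 0 were found for Pold2 (-0.83), Eif5a (-0.64), Ran (-0.61), Hspa8 (-0.60), Cnn2 (-0.60), Srm (-0.59), Ubtf (-0.57), Fkbp4 (-0.54), Rpl10 (-0.54), Hspe1 (-0.46), Actb (-0.45), Set (-0.45), Gar1 (-0.45), Tagln2 (-0.41), Npm1 (-0.41), Rpl28 (-0.40), Ncl (-0.38), Rpl14 (-0.36), Gapdh (-0.35), Ebna1bp2 (-0.32), Eif4e (-0.32), Rrs1 (-0.23), Eif4a1 (-0.23), Sgk1 (-0.20) and Tpm4 (-0.15).

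Some of these calls were lost under alternatives. Arrdc2 was not called without AS1411 replicate 1 at 48 h, where the difference was 0.71 with an adjusted p of 0.0673. Sgk1, Tpm4, Eif2ak2 and Notch3 were lost in 9 to 12 of the alternatives, and Ncl, Eif4a1, Rrs1 and Rpl28 in 4 to 6. Every difference also rests on control replicate 2 at 48 h, the odd library of the control group.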

How the results depend on the processing

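Of the alternative values computed, 316 of the counts stayed within 1.5 times and 15 did not. Of the list medians, 395 stayed within the spread between libraries and 95 did not. Of the values of named genes, 12 changes and 65 differences were no longer called, 1 change and 5 differences became called, and 2 changes and 6 differences turned sign. The filter on low counts applied to the other 9 libraries gave 449 genes at least 2-fold higher in AS1411 cells. Scaling by total counts, under which the median change of all genes was 0.10, gave 2050 genes lower in AS1411 cells and 1192 with a difference below 0, and 37 ribosomal protein genes, 12 translation factors and 11 chaperone genes lower. An adjusted p under 0.01 gave 966 and 1040 genes with a difference above and below 0, and 830 higher and 1033 lower in control cells. Leaving out 1 library at a time gave 2423 to 3578 genes higher and 2541 to 3566 lower in AS1411 cells, 571 to 696 and 121 to 169 at least 2-fold, 1218 to 2039 and 1427 to 2238 with a difference above and below 0, and 1092 to 1931 higher and 1125 to 2030 lower in control cells. Members called then ranged from 21 to 25 (p53 targets), 16 to 20 (interferon-stimulated), 8 to 9 (MHC class I), 51 to 60 (ribosome biogenesis), 44 to 58 (ribosomal proteins), 12 to 20 (translation factors), 15 to 18 (MYC network), 16 to 19 (chaperones), 11 to 17 (SRF-dependent), 4 to 5 (alpha-arrestins) and 13 to 15 (BCL2 family and death). With 1 AS1411 library left at 48 h, that library is assumed to vary like the other groups. Deviations from the group means of same-numbered AS1411 libraries correlated at 0.08 and 0.02. Those of AS1411 and control libraries at 48 h correlated at 0.12 and 0.21, but AS1411 replicate 1 correlated as much with control replicate 3 (0.12). No other same-numbered pair exceeded 0.04. The replicate block gave 3153 genes higher and 3177 lower in AS1411 cells, 6083 of them shared, and 1731 and 1827 with a difference above and below 0. DESeq2 called 5586 genes, 5541 of them shared, and the AS1411 libraries alone 7140, with 6381 shared. Signs turned for values that were not called. The Trp53 change was 0.00 (adjusted p = 0.974) with the replicate block and -0.01 (0.895) without AS1411 replicate 2 at 48 h. The Edn1 difference was 0.05 with scaling by total counts, 0.00 with upper-quartile scaling, and from -0.23 to 0.14 without 1 library, above 0 without AS1411 replicate 1 at 24 h (0.02), AS1411 replicate 2 at 48 h (0.13), control replicate 3 at 24 h (0.05) or control replicate 3 at 48 h (0.14). The Trp53 change was called with scaling by total counts (0.11, adjusted p = 0.0221). The causes of these changes were not tested. Genes under about 1 CPM rest on few reads, and their fold changes depend on the prior count.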

Other observations

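Genes of the muscle marker list gave a value outside the comparisons above. Des, the intermediate filament protein desmin, had 5.99 and 7.76 CPM in the AS1411 48 h libraries, against 0.758, 1.096 and 1.37 CPM in the AS1411 24 h libraries, and 0.969, 0.551 and 0.6698 CPM in control cells at 48 h and 0.421, 0.671 and 0.293 CPM in control cells at 24 h. Its log2 change was 2.65 ± 0.25 (SE, adjusted p = 9.6e-08) with AS1411, and the difference from control cells was 2.02 ± 0.52 (SE, adjusted p = 0.00729). Cd68, a lysosomal membrane protein best known from macrophages, had 11.9 and 13.1 CPM in the AS1411 48 h libraries, against 6.82, 4.89 and 6.52 CPM in the AS1411 24 h libraries, and 4.01, 3.73 and 4.07 CPM in control cells at 48 h and 6.98, 4.902 and 5.06 CPM in control cells at 24 h, with a log2 change of 1.03 ± 0.15 (SE, adjusted p = 2.5e-05). Csf1r and Ttn, of the same lists, were in the table and did not pass the filter on low counts.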
